A study of Mus musculus with 20 samples.

Results

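The cytosolic and mitochondrial heat shock chaperones form the core of the machinery that folds new proteins and holds or refolds damaged ones. A list of 10 of these genes was taken: the small heat shock protein Hspb1, the Hsp70 proteins Hspa1b and Hspa8, the Hsp90 proteins Hsp90aa1 and Hsp90ab1, the mitochondrial chaperonin Hspd1 and its lid Hspe1, the Hsp70 exchange factor Hsph1, and the J-domain co-chaperones Dnajb1 and Dnaja1. Every probe set that the platform annotation gives to a listed gene alone was used, which was 24 of 45037 probe sets and 9 of 18193 genes. Hsp90ab1 was not analysed here because no probe set carried its name alone. The genes were chosen by name and not by a measured value, but with earlier results of these arrays known.

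Lens RNA was measured on 20 Affymetrix arrays in 4 groups of 5. The lenses labelled triple knockout (TKO) came from Cry-Cre E2F1-/- E2F2-/- E2F3f/f mice at P0, the day of birth, and at embryonic stage E17.5. The lenses labelled control came from E2F2-/- mice at the same stages, so the loss of E2F2 is shared by all 4 groups and the Cre transgene is present in the TKO groups only. Loss of E2F1 and E2F2 was in every cell, while E2F3 is lost only where the Cre transgene, named for a crystallin gene, is active. The comparison addresses what happens in a lens without these E2F transcription factors, which drive genes of DNA replication and division. Each array holds both lenses of a mouse, and below "a lens" stands for such a sample, both lenses together. The labels used here name no litter, sex or strain background, so p-values measure the spread between these samples.

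The array medians lay between 5.05 and 5.25 on the log2 scale, and the mean correlation of an array with its own group lay between 0.981 and 0.996. Of the genes deleted in TKO but not in control lenses, both tested E2f1 probe sets were higher in TKO lenses, with 1417878_at by 0.44 ± 0.09 at P0 (limma adjusted p = 0.00289). Of 2 E2f3 probe sets, 1427462_at was higher at P0 by 0.16 ± 0.06 (limma adjusted p = 0.0484), and neither passed as lower at either stage. The probe sets of E2f2, which all 4 groups lack, did not pass at either stage. The position of these probes relative to the deleted exons is not known here, so they check nothing, and every direction below rests on the labels. The labelled cell type is epithelial, but all 10 lens fibre markers on the array lay above the array median on all 20 arrays, as did all 8 lens epithelium markers. Of 16 retina markers on the array 15 were tested, and 13 of these were higher in TKO lenses at P0. The mean of the 15 ranged from 6.46 to 7.76 in TKO lenses against 4.63 to 6.11 in control lenses at P0, and from 5.76 to 8.01 in TKO lenses against 5.51 to 6.76 in control lenses at E17.5. Rcvrn, a photoreceptor gene, was too dim to be tested. At P0 also 5 of 7 pigment cell markers and 3 of 6 macrophage markers were higher in TKO lenses. Of 8 lens epithelium markers 3 were higher and 5 lower. Over all genes tested at P0, 19.7% were higher and 18.8% lower. The difference between the 5′ and 3′ Gapdh control probe sets, a sign of RNA quality, ranged from 0.147 to 0.195 in TKO lenses against -0.046 to 0.060 in control lenses at P0, and from 0.100 to 0.200 in TKO lenses against -0.060 to -0.019 in control lenses at E17.5. The part of these marker genes and of RNA quality in the chaperone differences was not tested. A fit with the retina markers as a covariate and lens-to-lens correlations of Hspb1 are given below. Those correlations use deviations from group means, so they cannot address a difference between groups.

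As background, Hsp70 proteins bind unfolded stretches of protein in a cycle of ATP binding and hydrolysis. J-domain proteins such as Dnajb1 bring them their clients, and exchange factors such as Hsph1 let the clients go. Hsp90 proteins take over near-native clients, small heat shock proteins such as Hspb1 hold unfolding proteins without ATP, and Hspd1 with Hspe1 encloses proteins in the mitochondrial matrix. Heat shock factors induce many of these genes through heat shock elements, which are inverted repeats of the unit GAA. In the lens the small heat shock proteins Cryaa and Cryab, the alpha-crystallins, make up much of the soluble protein, and the factor Hsf4 is needed for normal fibre cells.

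The promoters of the listed genes were read to see which carry such elements. RefSeq windows (GRCm38.p6, 250 bases before to 50 after each annotated start) were held for 7 of the 10 genes, as 12 windows. The units were searched as GAANNTTC and TTCNNGAA, which read the same on both strands and can overlap by a unit, and as a 3-unit run in which both pairs overlap, on either strand. GAANNTTC was found in windows of 9.04% of all 27025 genes and of 6 of 7 listed genes. TTCNNGAA was found in windows of 9.60% of all genes and of 3 of 7 listed genes. The 3-unit run was found in windows of 0.662% of all genes and of 3 of 7 listed genes, which were Hspd1, Hspe1 and Hsph1. None of the 7 held an E2F octamer (TTTCCCGC, TTTCGCGC, TTTGCCGC or TTTGGCGC on either strand), which windows of 2.605% of all genes held. A gene can have more than 1 window. Windows of 5 genes are shown 5′ to 3′ on the strand of the gene, with both pair motifs in capitals: those of the genes with the largest changes (Hspb1, Dnajb1 and Hspe1), of Hsph1, which did not rise, and of the heat-inducible Hspa1b, which lay below the array median. They lie at chr5:135887669-135887968 on the plus strand for Hspb1, chr8:83607925-83608224 on the plus strand for Dnajb1, chr1:55087898-55088197 on the plus strand for Hspe1, chr5:149636287-149636586 on the minus strand for Hsph1 and chr17:34959189-34959488 on the minus strand for Hspa1b.
Hspb1: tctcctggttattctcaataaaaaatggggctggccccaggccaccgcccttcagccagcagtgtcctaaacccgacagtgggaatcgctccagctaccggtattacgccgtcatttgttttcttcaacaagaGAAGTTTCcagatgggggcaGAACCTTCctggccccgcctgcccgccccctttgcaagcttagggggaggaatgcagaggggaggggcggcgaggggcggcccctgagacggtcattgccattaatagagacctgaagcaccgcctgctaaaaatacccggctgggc
Dnajb1: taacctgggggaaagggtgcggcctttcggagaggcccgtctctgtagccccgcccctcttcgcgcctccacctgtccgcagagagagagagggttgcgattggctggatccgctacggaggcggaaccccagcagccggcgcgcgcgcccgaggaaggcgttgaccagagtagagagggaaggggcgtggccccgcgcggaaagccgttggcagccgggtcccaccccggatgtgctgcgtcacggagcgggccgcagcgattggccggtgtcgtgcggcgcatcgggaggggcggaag
Hspe1: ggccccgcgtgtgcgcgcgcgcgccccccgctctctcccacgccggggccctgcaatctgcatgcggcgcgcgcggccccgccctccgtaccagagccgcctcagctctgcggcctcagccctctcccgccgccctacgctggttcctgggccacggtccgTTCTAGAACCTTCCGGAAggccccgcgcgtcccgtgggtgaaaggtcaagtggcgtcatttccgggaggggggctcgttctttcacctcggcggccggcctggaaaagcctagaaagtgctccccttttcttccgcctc
Hsph1: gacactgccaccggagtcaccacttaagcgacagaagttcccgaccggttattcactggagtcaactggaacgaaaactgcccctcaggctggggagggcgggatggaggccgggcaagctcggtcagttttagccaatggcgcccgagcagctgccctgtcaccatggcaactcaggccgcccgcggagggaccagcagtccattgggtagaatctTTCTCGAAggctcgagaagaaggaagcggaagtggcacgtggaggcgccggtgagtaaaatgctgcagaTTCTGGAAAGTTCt
Hspa1b: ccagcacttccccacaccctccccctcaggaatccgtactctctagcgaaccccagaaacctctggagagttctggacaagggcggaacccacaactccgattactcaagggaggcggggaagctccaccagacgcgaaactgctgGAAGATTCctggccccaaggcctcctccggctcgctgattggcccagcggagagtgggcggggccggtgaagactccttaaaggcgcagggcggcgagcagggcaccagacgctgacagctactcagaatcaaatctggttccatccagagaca

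Hspb1 held 2 pairs, which began 117 and 97 bases upstream of the start. Hspe1 held an unbroken run of overlapping pairs that began 89, 84 and 79 bases upstream. Hspd1 and Hspe1 are transcribed in opposite directions from neighbouring starts, and 285 bases of the Hspe1 window are also the window of an annotated Hspd1 start. Hsph1 held a pair 33 bases upstream and 2 overlapping pairs that began at positions 37 and 42 after the start. A single pair began 104 bases upstream in Hspa1b and 124 bases upstream in a window of Dnaja1. Neither Dnajb1 window held a pair, which says only that these letters are not in these windows.

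**Figure D1:**
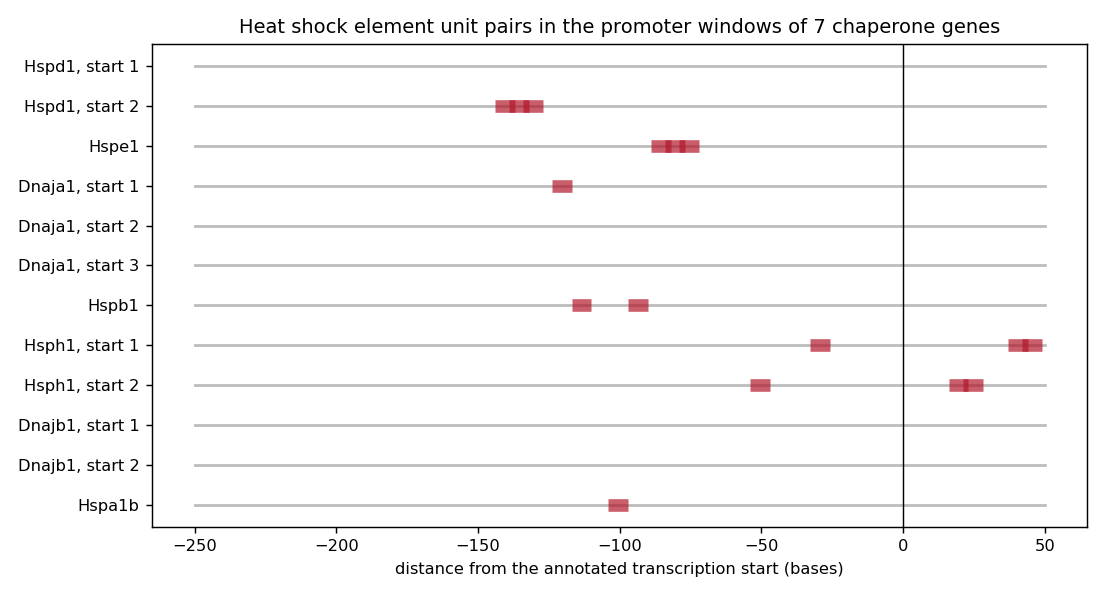
Position of each GAANNTTC or TTCNNGAA pair (red blocks) in the 12 RefSeq promoter windows of 7 listed genes, drawn as grey lines from 250 bases before to 50 after the annotated transcription start (x axis, bases). The windows of Hspe1 and of an Hspd1 start share the same run of pairs, and both Dnajb1 windows are empty.

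At P0, 6 of the 8 tested chaperone genes rose in TKO lenses and none fell. Hspb1 rose most, 2.81-fold, followed by Dnajb1 at 1.69-fold and the mitochondrial lid Hspe1 at 1.37-fold. Dnaja1, Hsp90aa1 and Hspa8 rose by 1.19-fold or less. Each gene was read through its brightest probe set, and a rise means a limma adjusted p below 0.05 over 23865 probe sets that lay above the array median in at least 5 arrays. Changes were common at this stage: 19.7% of 11860 genes rose and 18.8% fell. Over the 24 probe sets, 19 passed the filter, 9 of these rose and 0 fell, where 18.8% of all probe sets tested rose. The median log2 change was 0.15 over the 19 probe sets and -0.02 over all tested. In whole lenses, fewer cells of a type and less RNA per cell cannot be told apart. With the retina markers as a covariate 0 of the 6 genes kept the call, although each of the 6 changes was larger in that fit. Over all 23865 probe sets the calls fell from 9198 to 1324 in the same fit. The retina means of TKO and control lenses do not overlap at P0, so this fit cannot tell the retina markers and the genotype apart.

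Hspb1 codes for the small heat shock protein Hsp25. Its brightest probe set, 1422943_a_at, read 13.02, 13.67, 13.38, 11.62 and 12.36 in the TKO P0 lenses (replicates 17, 18, 19, 21 and 22), against 11.29, 11.26, 11.32, 11.38 and 11.36 in the control P0 lenses. All TKO values lay above all control values, and the TKO lenses spread far more widely, with an SD of 0.83 against 0.05 (n = 5 each). The log2 change was 1.49 ± 0.31 (limma adjusted p = 0.00409), and the other Hspb1 probe set, 1425964_x_at, gave 1.69 ± 0.36 (limma adjusted p = 0.00421). With the retina covariate the change was 1.94 (limma adjusted p = 0.0633). Replicate 21 lay just above the highest control lens, and replicate 18 was the highest of all.

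Dnajb1, the J-domain partner of cytosolic Hsp70, was higher in every TKO lens than in any control lens by its brightest probe set. The probe set 1416756_at read 12.36, 12.76, 12.52, 11.89 and 12.05 in TKO P0 lenses, against 11.58, 11.55, 11.63, 11.52 and 11.52 in control P0 lenses. The groups did not overlap, and replicates 18 and 21 were again the highest and the lowest TKO lens. The log2 change was 0.76 ± 0.14 (limma adjusted p = 0.00215), and 0.79 with the retina covariate (limma adjusted p = 0.0882). The second Dnajb1 probe set, 1416755_at, read 11.97, 12.35, 12.19, 11.61 and 11.67 in TKO lenses against 11.88, 11.76, 11.84, 11.80 and 11.74 in control lenses. There 2 TKO lenses fell below every control lens, and the change of 0.16 ± 0.13 did not pass (limma adjusted p = 0.366).

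Dnaja1, a farnesylated J-domain protein of the cytosol, was higher by its brightest probe set alone. 1416288_at read 12.42, 12.31, 12.42, 12.21 and 12.29 in TKO P0 lenses, against 12.05, 12.11, 12.01, 12.04 and 12.16 in control P0 lenses. These groups did not overlap, and the log2 change was 0.25 ± 0.06 (limma adjusted p = 0.00812). The other probe sets of the gene gave -0.06 ± 0.10 (1460179_at, limma adjusted p = 0.682) and -0.17 ± 0.08 (1459835_s_at, limma adjusted p = 0.108). Averaged over its 3 probe sets, the gene changed by 0.01 (limma adjusted p = 0.913).

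Hspe1, the Hsp10 lid of the mitochondrial chaperonin, rose by both of its probe sets. 1450668_s_at read 11.80, 12.04, 11.80, 11.32 and 11.39 in TKO P0 lenses, against 11.16, 11.11, 11.16, 11.16 and 11.49 in control P0 lenses. Control replicate 8 lay above TKO replicates 21 and 22, so the groups overlapped. The log2 change was 0.46 ± 0.14 (limma adjusted p = 0.0217), and 1422579_at gave 0.57 ± 0.15 (limma adjusted p = 0.0130). Without TKO replicate 17 or without TKO replicate 19 the first of these no longer passed (limma adjusted p = 0.0517 and 0.0516).

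Hspd1, the Hsp60 ring that Hspe1 closes, did not change with it. Its probe set 1426351_at read 11.18, 11.15, 11.17, 11.08 and 11.40 in TKO P0 lenses, against 11.17, 11.22, 11.19, 11.29 and 11.40 in control P0 lenses. The ranges overlapped almost fully, with a log2 change of -0.06 ± 0.07 (limma adjusted p = 0.564).

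Hsp90aa1, the inducible Hsp90, rose by 2 of its 3 tested probe sets. 1426645_at read 11.98, 11.91, 12.04, 12.08 and 12.19 in TKO P0 lenses, against 11.71, 11.70, 11.76, 11.80 and 11.9965 in control P0 lenses. Only control replicate 8 reached into the TKO range, and the log2 change was 0.25 ± 0.08 (limma adjusted p = 0.0238). 1437497_a_at rose by 0.15 ± 0.05 without overlap (limma adjusted p = 0.0453), while 1438902_a_at gave -0.05 ± 0.06 (limma adjusted p = 0.520). The other probe sets, 1433251_at and 1441827_x_at, lay between 2.97 and 4.52 on the 20 arrays and were too dim to be tested. The call of 1426645_at was lost after quantile normalization (0.18, limma adjusted p = 0.0772) and without control replicate 1, 5 or 6 in turn. Averaged over all its probe sets, Hsp90aa1 changed by 0.09 and did not pass (limma adjusted p = 0.158). That average includes the probe sets too dim to be tested, so it is not a mean of the 3 tested ones.

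Hspa8, the constitutive Hsp70, changed little. 1420623_x_at read 13.11, 13.12, 13.12, 12.96 and 13.06 in TKO P0 lenses, against 12.93, 12.91, 12.93, 12.91 and 12.92 in control P0 lenses. The groups did not overlap, but the log2 change was only 0.15 ± 0.05 (limma adjusted p = 0.0390). It lost its call in 8 of 10 fits that left out a lens and after quantile normalization (0.10, limma adjusted p = 0.120). The 3 other Hspa8 probe sets changed by 0.05 to 0.17, and none passed.

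Hsph1, the Hsp105 exchange factor, was the one tested gene besides Hspd1 that did not rise. 1425993_a_at read 9.44, 9.57, 9.52, 9.18 and 9.35 in TKO P0 lenses, against 9.56, 9.60, 9.70, 9.52 and 9.67 in control P0 lenses. Most TKO lenses lay below the control lenses, and the log2 change was -0.20 ± 0.08 (limma adjusted p = 0.0652). After centring each array on its median it was -0.22 and passed (limma adjusted p = 0.0453). The dimmer 1423566_a_at gave 0.06 ± 0.11 (limma adjusted p = 0.697).

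Hspa1b, the classic heat-inducible Hsp70, lay below the array median on all 20 arrays. Its brightest probe set, 1427127_x_at, read 4.13, 4.003, 4.55, 3.97 and 4.19 in TKO P0 lenses, against 4.07, 4.08, 3.92, 3.79 and 3.67 in control P0 lenses. The groups overlapped, and its 3 probe sets were too dim to be tested, as was 1452388_at of the near-identical Hspa1a (3.20 against 2.94 on average). A probe set may read both copies, whose signals cannot be told apart.

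**Figure D2:**
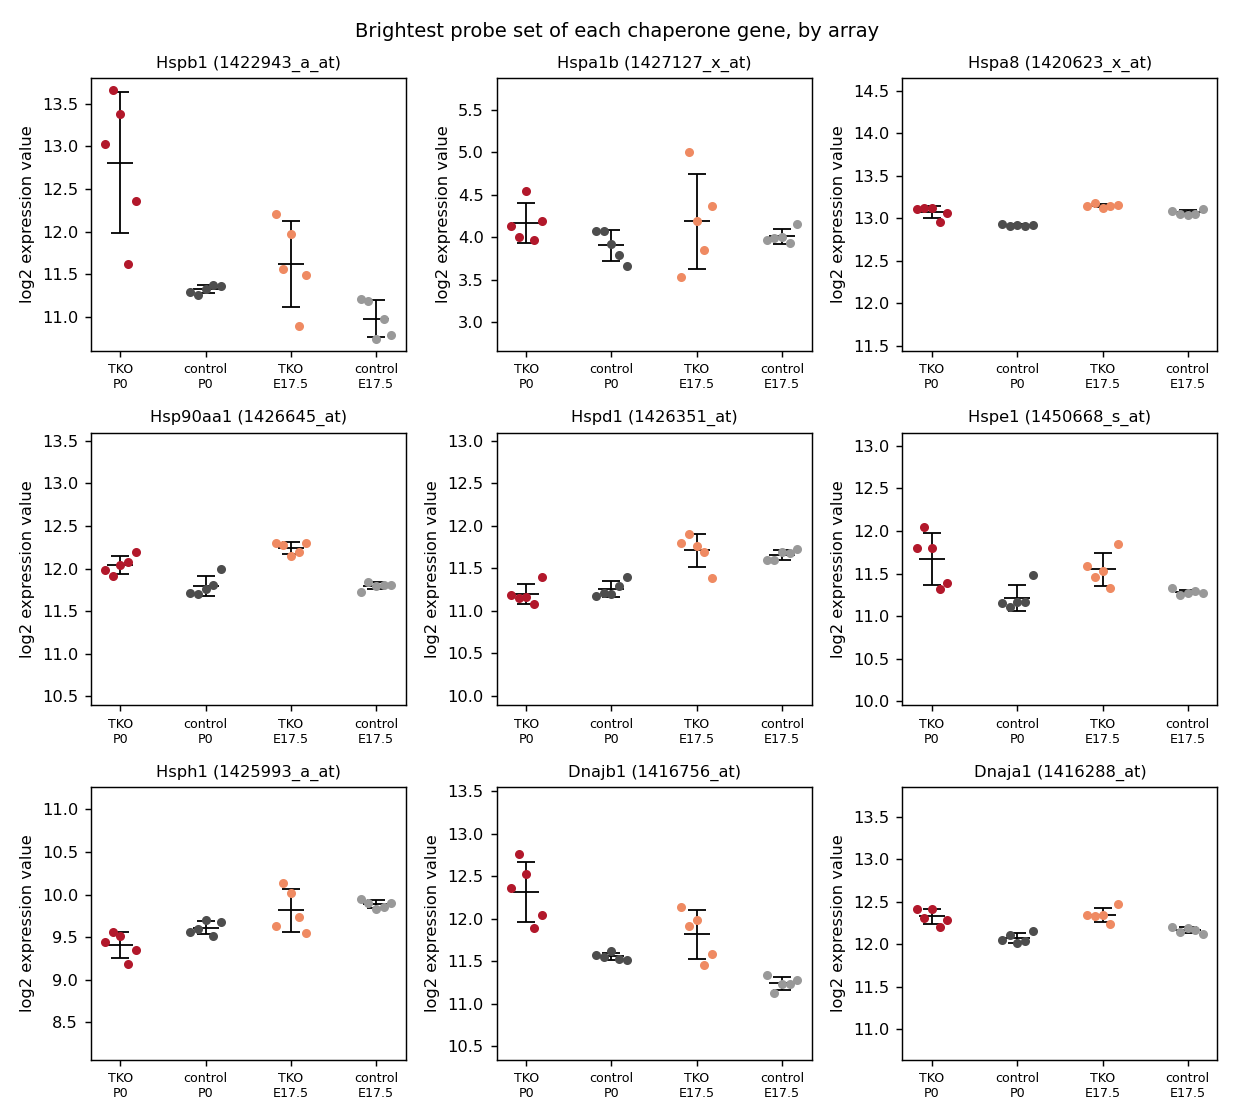
Log2 expression value (y axis) of the brightest probe set of each of 9 chaperone genes in the 5 lenses of each group (points; bars are the mean ± SD, n = 5), with each panel spanning the same log2 range. The TKO P0 lenses of Hspb1 range from 11.62 to 13.67 and the control P0 lenses from 11.26 to 11.38, while Hspd1 differs by stage more than by genotype.

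At E17.5 fewer chaperone genes passed, and these were Hsp90aa1 and Dnajb1, 2 of 8 genes. Across all genes 2.39% rose and 2.37% fell at this stage. Over probe sets 3 of 19 rose and 0 fell, where 4.43% of all probe sets rose, and the median log2 change of the 19 was 0.18 against -0.01 over all. The TKO lenses lay wholly above the control lenses for 7 of 19 probe sets, where this held for 5.48% of all tested, against 6 of 19 and 12.4% of all at P0.

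Hsp90aa1 had the smallest adjusted p of the list at E17.5. 1426645_at read 12.30, 12.27, 12.14, 12.19 and 12.31 in TKO E17.5 lenses (replicates 24 to 28), against 11.73, 11.84, 11.80, 11.80 and 11.81 in control E17.5 lenses (replicates 10, 11, 12, 13 and 15). The gap between the groups exceeded the range within each, and the log2 change was 0.45 ± 0.06 (limma adjusted p = 0.00289). With the retina covariate it was 0.46 (limma adjusted p = 0.00775). The probe set 1437497_a_at rose by 0.26 ± 0.06 (limma adjusted p = 0.0321), and 1438902_a_at gave 0.05 ± 0.06 (limma adjusted p = 0.592). Averaged over all its probe sets, those too dim to be tested included, Hsp90aa1 changed by 0.16 and did not pass (limma adjusted p = 0.141).

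Dnajb1 1416756_at read 12.14, 11.92, 11.98, 11.46 and 11.58 in TKO E17.5 lenses, against 11.33, 11.13, 11.23, 11.24 and 11.28 in control E17.5 lenses. All TKO lenses were higher, with a log2 change of 0.57 ± 0.12 (limma adjusted p = 0.0240). The call was lost in 7 of 10 fits that left out a lens, where the change ranged from 0.49 to 0.66, and with the retina covariate (0.56, limma adjusted p = 0.0598). 1416755_at changed by 0.16 ± 0.11 (limma adjusted p = 0.347), and the mean of both probe sets by 0.37 (limma adjusted p = 0.0752).

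Hspb1 1422943_a_at read 12.20, 11.56, 11.97, 10.89 and 11.49 in TKO E17.5 lenses, against 11.20, 11.18, 10.73, 10.97 and 10.78 in control E17.5 lenses. TKO replicate 27 lay among the control lenses and the other 4 above them. The log2 change of 0.65 ± 0.22 did not pass (limma adjusted p = 0.0910), and without replicate 27 it was 0.83 and passed (limma adjusted p = 0.0151).

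Hspe1 1450668_s_at read 11.58, 11.46, 11.53, 11.33 and 11.85 in TKO E17.5 lenses, against 11.32, 11.25, 11.28, 11.29 and 11.28 in control E17.5 lenses. No TKO lens overlapped the control lenses, but the change of 0.27 ± 0.09 did not pass (limma adjusted p = 0.0959). Without replicate 27 it was 0.32 and passed (limma adjusted p = 0.0431).

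Dnaja1 1416288_at was at 0.18 ± 0.06 without overlap (limma adjusted p = 0.104). By their brightest probe sets, the changes of Hspa8 (0.08 ± 0.06, without overlap), Hspd1 (0.05 ± 0.09) and Hsph1 (-0.07 ± 0.11) were within about 1.5 standard errors of 0. The dimmer Hsph1 1423566_a_at gave 0.26 ± 0.15 (limma adjusted p = 0.279). The other Hspa8 probe sets gave -0.06 to 0.33, the highest being the dim 1431182_at (0.33 ± 0.14, limma adjusted p = 0.148), and none passed. Hspa1b stayed below the array median, and its 1427127_x_at averaged 4.19 ± 0.56 in TKO E17.5 lenses and 4.01 ± 0.09 in control E17.5 lenses (SD, n = 5 each).

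**Figure D3:**
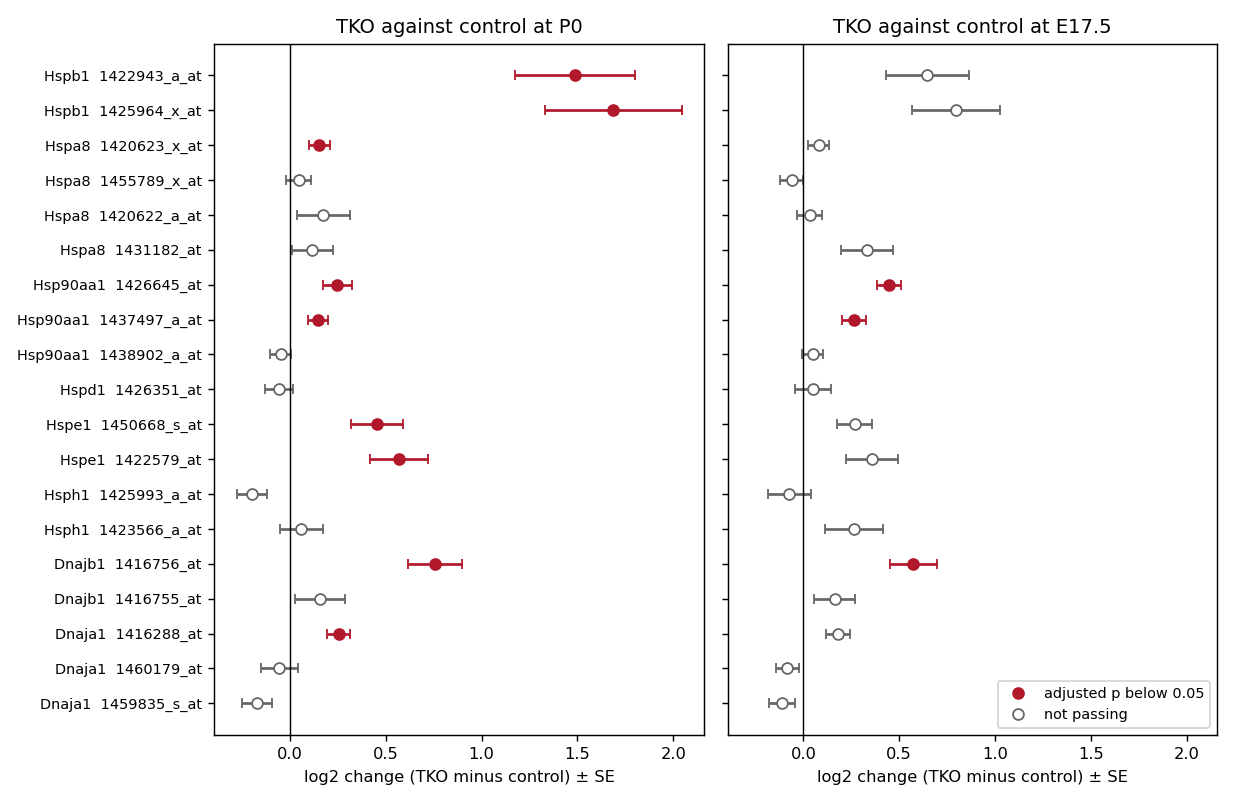
Log2 change, TKO minus control, with its standard error (x axis) for the 19 tested chaperone probe sets at P0 (left) and E17.5 (right), 5 lenses per group. Filled red points passed the limma test, which 9 probe sets did at P0 and 3 at E17.5, and probe sets of one gene often stand apart, as for Dnajb1 and Dnaja1.

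The TKO effect was not shown to differ between P0 and E17.5 for any chaperone. The test of the difference, over all 20 arrays, called 0 of 19 probe sets by limma, where it called 0.402% of all probe sets. The only probe set with an unadjusted limma p under 0.05 was Hsp90aa1 1426645_at (-0.20 ± 0.09, limma adjusted p = 0.272). For Hspb1 the effect at P0 exceeded that at E17.5 by 0.84 ± 0.41 (limma adjusted p = 0.288). With array weights, which count less those arrays that fit their group poorly, the difference passed for Hspb1 (0.95, limma adjusted p = 0.0291) and Hspe1 (0.35, limma adjusted p = 0.0440). The weighted fit called 4976 of all 23865 probe sets, against 96 without weights.

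Between the stages, Hspb1 and Dnajb1 rose in control lenses, being higher at P0 than at E17.5, and Hspa8, Hspd1 and Hsph1 fell. Of 19 probe sets 4 rose and 7 fell in control lenses, where 12.8% and 20.5% of all probe sets did. In control lenses 8 of 10 lens fibre markers and 2 of 8 lens epithelium markers were also higher at P0, and 6 of 15 retina markers (median -0.84), 3 of 6 macrophage, 1 of 7 pigment cell and both red blood cell markers were lower. Their part in the stage differences was not tested. Hspd1 averaged 11.25 ± 0.09 in control P0 lenses and 11.66 ± 0.06 in control E17.5 lenses (SD, n = 5 each), a change of -0.41 ± 0.05 (limma adjusted p = 0.000373). Hsph1 1425993_a_at fell by 0.28 on the log2 scale (SE 0.05, limma adjusted p = 0.00165), and Hspa8 1420623_x_at fell by 0.15 (SE 0.04, limma adjusted p = 0.0106). The dim Hspa8 1431182_at passed the filter through E17.5 arrays only, where 5 TKO and 4 control lenses lay above the array median, so its value of -0.49 ± 0.08 describes it and is no support. Without it 4 of 18 probe sets rose and 6 fell. Dnajb1 rose by 0.32 ± 0.05 by 1416756_at and by 0.33 ± 0.06 by 1416755_at (limma adjusted p = 0.000779 and 0.00165). Hspb1 1422943_a_at rose by 0.35 ± 0.09 (limma adjusted p = 0.0139). With all 20 arrays in 1 fit the calls of Hspb1 (limma adjusted p = 0.451), Dnajb1 1416756_at (limma adjusted p = 0.133) and Hsph1 (limma adjusted p = 0.0588) were lost, and that of Hspa8 was lost after quantile normalization (-0.10, limma adjusted p = 0.0520).

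In TKO lenses only 2 of 19 probe sets changed between the stages, and both fell, where 4.9% of all probe sets rose and 9.75% fell. Hspd1 averaged 11.20 ± 0.12 in TKO P0 lenses and 11.71 ± 0.19 in TKO E17.5 lenses (SD, n = 5 each), a change of -0.52 ± 0.11 (limma adjusted p = 0.0144). The other was the dim Hspa8 1431182_at, at -0.71 ± 0.15, which entered through E17.5 arrays only and is no support. Without it 1 of 18 fell. Of the marker lists, 1 of 10 lens fibre and 1 of 15 retina markers were higher and 2 of 8 lens epithelium and 1 of 2 red blood cell markers lower at P0 in TKO lenses. The TKO lenses varied more, and Hspb1 at 1.19 ± 0.37 (limma adjusted p = 0.0511) and Dnajb1 1416756_at at 0.50 ± 0.18 (limma adjusted p = 0.0826) did not pass. The order of the 4 groups differed between the genes. For Hspb1 and Dnajb1 1416756_at it was TKO P0, TKO E17.5, control P0 and control E17.5 from high to low, and each group overlapped the next except control P0 and control E17.5. For Hspd1 both E17.5 groups stood above both P0 groups on average, and neither pair of genotypes differed beyond its spread.

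Probe sets of the same gene were then set against each other. For each pair the difference of the log2 values, brighter minus dimmer, was fitted with limma in the same way over 14536 pairs of 5293 genes. At P0 the TKO change differed within 7 of 16 chaperone pairs, in 5 of 7 genes, and 35.6% of all pairs differed. At E17.5 it differed within 7 of 16, in 5 genes, and 24.6% of all pairs differed. The Hspa8 pair among these 7, 1455789_x_at against 1431182_at (limma adjusted p = 0.0427), holds the dim probe set that entered through E17.5 arrays only. That pair is no support, and it lost its call in 8 of 10 fits that left out a lens. The share at P0 is near that over all pairs, so a disagreement between probe sets was a common property of this comparison. The signs of the 2 changes were opposite in 5 pairs at P0 and in 6 at E17.5.

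The widest difference was in Dnajb1, where 1416756_at exceeded 1416755_at in its TKO change by 0.60 ± 0.05 at P0 (limma adjusted p = 6.32e-05) and by 0.41 ± 0.07 at E17.5 (limma adjusted p = 0.00149), without overlap at either stage. In Dnaja1, 1416288_at exceeded 1459835_s_at by 0.43 ± 0.07 at P0 (limma adjusted p = 0.000978) and by 0.29 ± 0.08 at E17.5 (limma adjusted p = 0.0170). In Hsp90aa1, 1426645_at exceeded 1438902_a_at by 0.30 ± 0.08 at P0 (limma adjusted p = 0.0115) and by 0.40 ± 0.05 at E17.5 (limma adjusted p = 0.000563). In Hsph1 the brighter 1425993_a_at lay below 1423566_a_at by -0.26 ± 0.07 at P0 (limma adjusted p = 0.0138) and by -0.34 ± 0.09 at E17.5 (limma adjusted p = 0.0241). These 4 genes differed at both stages and in the same direction. The 2 Hspb1 probe sets differed by only -0.20 ± 0.07 at P0 (limma adjusted p = 0.0376) around changes of 1.49 and 1.69. The 2 Hspe1 probe sets were not shown to differ at P0 (-0.12 ± 0.05, limma adjusted p = 0.118). The sources used here do not say which part of each transcript a probe set reads.

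**Figure D4:**
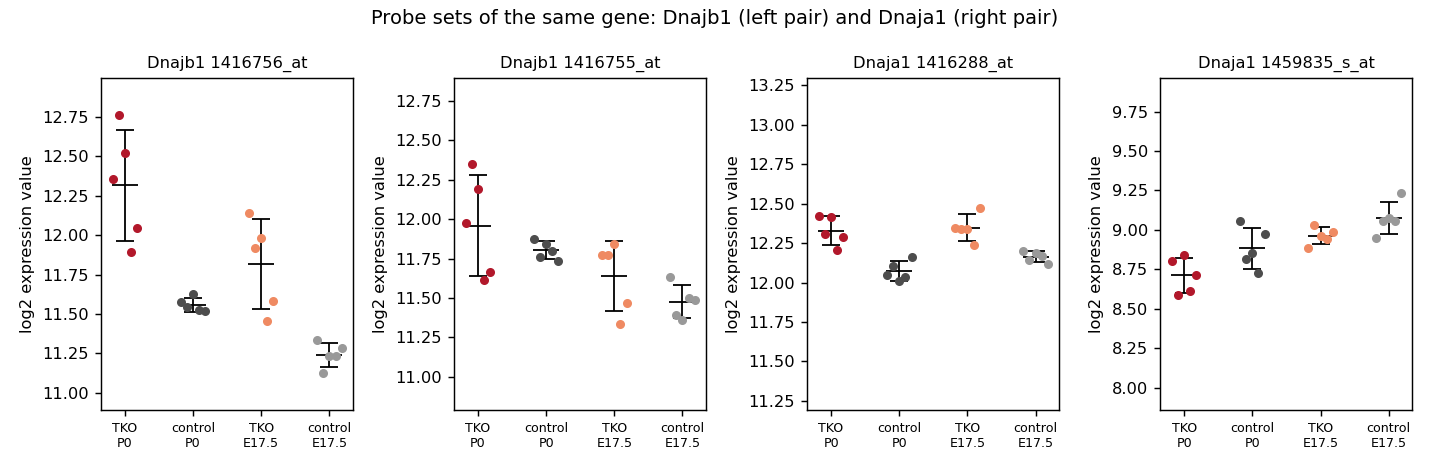
Log2 expression value (y axis, same span in each panel) of 2 probe sets each of Dnajb1 and Dnaja1 in the 5 lenses of each group (points; bars are the mean ± SD, n = 5). TKO lenses stand above control lenses at both stages in 1416756_at and 1416288_at, but not in 1416755_at and 1459835_s_at.

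Over the 20 lenses together, Hspb1 and Dnajb1 also varied alike around their group means, and the widest deviations were in TKO lenses. TKO replicate 21 was the lowest of the 5 TKO P0 lenses for 8 of 9 genes, and it had the highest retina mean, 7.76. Over the 20 lenses, deviations of Hspb1 from its group mean were compared with those of 8 chaperone genes and 3 technical measures, 11 relations in all. Dnajb1 followed Hspb1 with Pearson r = 0.902 (permutation p = 0.0003, 0.0033 adjusted over the 11) and Spearman rho = 0.752 (permutation p = 0.00702, adjusted p = 0.0772, which does not pass). Without TKO P0 replicates 18 and 21, the farthest lenses, r was 0.836. Dnajb1 did not follow Hspb1 in the control lenses. Control P0 replicates 7 and 8 were the highest for Hspb1 (0.05 and 0.04) and the lowest for Dnajb1 (-0.03 and -0.04). Control E17.5 replicate 10 was the highest for both (0.23 and 0.09), but replicate 11 was high for Hspb1 (0.21) and lowest for Dnajb1 (-0.11). No r was computed within a group. For Hspe1 r was 0.719 and rho 0.629, neither of which passed (permutation p adjusted to 0.100 and 0.119), and for Hsp90aa1 r was -0.287 and rho -0.332 (permutation p adjusted to 0.583 and 0.450). The deviations of Hspb1 had r = -0.057 and rho = 0.009 with the retina mean (permutation p adjusted to 0.990 and 0.976), and r = -0.020 and rho = 0.008 with the Gapdh difference (permutation p adjusted to 0.990 and 0.976).

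**Figure D5:**
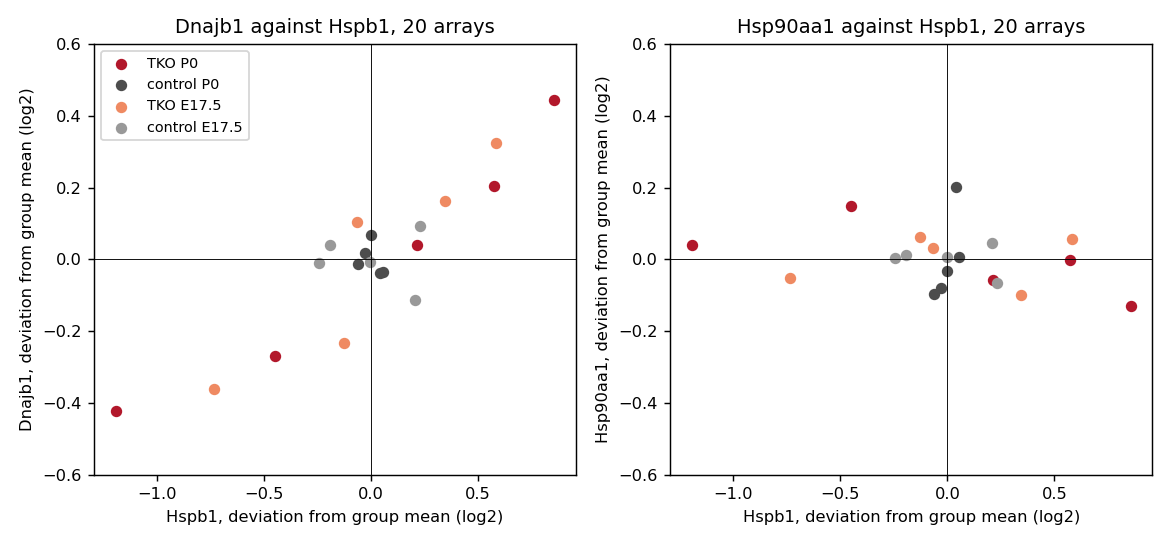
Deviation of each of 20 lenses from the mean of its group for Dnajb1 (left) and Hsp90aa1 (right) against Hspb1 (x axis), in log2 units. Over all 20 lenses Dnajb1 follows Hspb1 (r = 0.902), with the TKO lenses at both ends, and Hsp90aa1 does not (r = -0.287). The control lenses alone do not show the relation to Dnajb1.

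By the same measure, the 5 genes of the whole array most like Hspb1 over the 20 lenses were Mrps6 (r = 0.946), Fbxo7 (0.938), Ceacam1 (0.923), Spr (0.922) and 1700007K13Rik (0.908). At P0 Mrps6, which codes for a mitochondrial ribosomal protein, rose by 0.31 ± 0.11, Fbxo7, an F-box protein, by 0.48 ± 0.11, and Ceacam1, a cell adhesion molecule, by 1.23 ± 0.28 (limma adjusted p = 0.0486, 0.00503 and 0.00549). Those most like Hspa1b were Fam171a2 (r = 0.847), Atrnl1, Pdgfc, Cln6 and Ston2, which follows a gene below the array median. These are the highest of 11860 genes and describe likeness in these lenses only.

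Other genes of the chaperone network were taken from 7 lists of 93 genes, of which 85 were tested. At P0 27 rose and 8 fell, with a median log2 change of 0.02, where 19.7% of all genes rose and 18.8% fell. At E17.5, where 2.39% of all genes rose and 2.37% fell, Yme1l1 alone rose and 0 fell. This mitochondrial protease gene rose by 0.35 ± 0.08 (limma adjusted p = 0.0266). The difference of the TKO effect between the stages passed for 0 of 85 genes by limma, where it passed for 0.211% of all genes. An unadjusted limma p under 0.05 was seen for 10 of the 85, a share that was not counted over all genes.

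Among 16 tested partners of Hsp70, 6 rose and 1 fell at P0, where 19.7% of all genes rose and 18.8% fell. Bag3, an exchange factor that couples Hsp70 to autophagy, averaged 8.06 in TKO lenses and 7.31 in control lenses, a change of 0.74 ± 0.20 (limma adjusted p = 0.0148). Hspa4l, a relative of Hsph1, rose by 0.52 ± 0.10 and Stub1, the ubiquitin ligase that marks Hsp70 clients, by 0.41 ± 0.08 (limma adjusted p = 0.00317 and 0.00237). Bag6, a holdase for membrane proteins, fell by 0.40 on the log2 scale (SE 0.08, limma adjusted p = 0.00292). Of 14 Hsp90 co-chaperones 5 rose and 0 fell, among them Stip1, which bridges Hsp70 and Hsp90, by 0.46 ± 0.10, Sugt1 by 0.27 ± 0.06 and Cdc37, the kinase adaptor, by 0.24 ± 0.07 (limma adjusted p = 0.00384, 0.00506 and 0.0202).

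Of 16 other J-domain genes 3 rose and 5 fell at P0, where 19.7% of all genes rose and 18.8% fell. Dnaja4 rose by 1.25 ± 0.28, Dnajc9, a histone chaperone, by 1.14 ± 0.09 and Dnajc8 by 0.22 ± 0.06 (limma adjusted p = 0.00596, 5.35e-05 and 0.0208). Dnajc6, which uncoats clathrin vesicles, fell by 1.18 on the log2 scale, Dnajc21 by 0.62 and Dnajc13 by 0.21 (limma adjusted p = 0.00152, 0.00228 and 0.0112). Dnajb1 (0.76) came after Dnaja4 and Dnajc9 in the size of its rise.

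Of 8 other small heat shock proteins tested 1 rose and 1 fell at P0, where 19.7% of all genes rose and 18.8% fell. Hspb8 rose by 0.60 ± 0.20 and Hspb2 fell by 0.42 (limma adjusted p = 0.0338 and 0.00344). The alpha-crystallins gave -0.01 ± 0.05 for Cryaa and -0.12 ± 0.05 for Cryab (limma adjusted p = 0.890 and 0.105).

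Of 15 other mitochondrial chaperones and proteases 7 rose and 1 fell at P0, where 19.7% of all genes rose and 18.8% fell. Their median log2 change was 0.20. Grpel1, the exchange factor of mitochondrial Hsp70, rose by 0.48 ± 0.11, Hspa9, that Hsp70 itself, by 0.37 ± 0.07, and Yme1l1, an inner membrane protease, by 0.29 ± 0.05, while Spg7, another such protease, fell by 0.24 (limma adjusted p = 0.00692, 0.00254, 0.00223 and 0.0122). Of 14 genes of the cytosolic chaperonin CCT and of prefoldin 4 rose, among them Pfdn4 by 0.34 ± 0.06, Pfdn1 by 0.24 ± 0.07 and Cct4 by 0.21 ± 0.05 (limma adjusted p = 0.00175, 0.0204 and 0.00972). Between stages in control lenses 9 of these 14 fell and 0 rose, where 23.7% of all genes fell and 11.7% rose.

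Of the heat shock factors, Hsf1 was not analysed here and Hsf2 was too dim to be tested. Hsf4 averaged 8.88 in TKO P0 lenses and 8.94 in control P0 lenses, a change of -0.05 ± 0.07 (limma adjusted p = 0.612). Hsbp1, which binds heat shock factor trimers, rose by 0.21 ± 0.05 at P0 (limma adjusted p = 0.00765).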

How the data were processed

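The authors deposited a table of log2 values for 20 lens samples on Affymetrix arrays, with a row for each probe set. The unit was inferred from the values (1.72 to 15.0). How background, probe summary and normalization were handled is not given in the sources used, and the deposited values were used unchanged. For arrays, their number limits the precision.

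Of 45101 probe sets, 64 controls were left out. The platform annotation named 1 gene for 34945, several for 932 and none for 9160, and 34741 symbols were updated by Entrez identifier through RefSeq (GRCm38.p6). No column was left unused, and at most 0.142% of values were equal between 2 arrays.

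Probe sets above the array median in at least 5 arrays (23865) were fitted with limma 3.58.1 in R 4.3.3 (lmFit, eBayes), 1 mean per group over the 2 groups compared (8 residual degrees of freedom) or over all 4 for the difference of effects (16). The fit used only the compared groups because the TKO arrays vary more. Tests were two-sided, with Benjamini-Hochberg adjustment over all probe sets and a threshold of 0.05. A gene was read through its probe set with the highest mean. Log2 changes are given with their standard errors. Fits of pairs of probe sets were added after the values were seen. Correlations used 100000 permutations in Python 3.11.15 with numpy 2.4.6.

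The members, the lists and the markers were chosen with earlier results of these data known. Named genes are all members, up to 3 risen and 3 fallen genes of each other list at P0 by smallest adjusted p, fixed values for Hspa1a, Hsf4, Cryaa and Cryab, and the 5 genes most like Hspb1 and Hspa1b.

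On simulated data with the spread of each group and 200 of 23865 probe sets changed, the P0 fit recovered 90% of changes of 1 and 59% of changes of 0.5, with 7.45% of calls false. For E17.5 these were 88%, 50% and 9.80%. For the stages they were 84%, 32% and 15.3% in TKO and 94%, 73% and 7.22% in control lenses. For the pairs at P0 (14536) they were 95%, 64% and 7.56%. The real fits called more probe sets than were changed here, 9198 at P0 and 1582 at E17.5. The cut-off of the adjustment depends on that share, so these rates do not measure recovery in the real fits.

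Alternatives were quantile normalization, median centring, no filter or a filter at the 75th percentile, other ways to combine probe sets, array weights, 1 fit of all arrays, the retina covariate and leaving out each lens.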

Additional observations from a re-analysis of the deposited data

Results flagged for a closer look

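Over 76 groups of 5 lenses, 1 for each of the 19 tested chaperone probe sets in each group, 3 held a lens that stood apart from the other 4 by Dixon's criterion (0.71 for 5 samples), where chance gives about 1 in 20, or 3.8. Hspe1 1450668_s_at was 11.5 in control P0 replicate 8, and the next control lens was at 11.2. The other Hspe1 probe set, 1422579_at, was 9.46 in the same lens, with the next at 9.18. Hsp90aa1 1437497_a_at was 11.9 (11.94) in TKO P0 replicate 18, with the next TKO lens at 11.86.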

How the results depend on the processing

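No chaperone change that passed the test in either fit turned its direction under any alternative. At P0 the count of chaperone genes called was 6, and 3 with all probe sets of a gene averaged, dim ones included. It was 0 with the retina covariate and 4 to 6 without a lens. At E17.5 it was 2, and 0 with probe sets averaged, 5 with array weights, 1 with the retina covariate and 1 to 4 without a lens: 1 without TKO replicate 25 or 26 or any control replicate, and 4 without TKO replicate 27. For the P0 minus E17.5 difference it was 0, and 2 with array weights. Between stages in TKO lenses it was 1, and 2 with quantile normalization, median centring or the retina covariate, 5 with all 20 arrays in 1 fit or with array weights, and 1 to 3 without a lens (3 without TKO E17.5 replicate 24). In control lenses it was 5, and 2 with all arrays in 1 fit. Chaperone pairs that differed at P0 numbered 7, and 2 with the retina covariate and 4 to 7 without a lens (4 without control replicate 1 or 7).

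Over all probe sets, the calls at P0 were 9198, and 5906 with the 75th percentile filter, 4700 with 1 probe set per gene, 3737 with the mean of the probe sets and 1324 with the retina covariate. At E17.5 they were 1582, and 343, 408 and 853 for the last 3 of these, 3735 with all arrays in 1 fit, 6896 with array weights and 607 to 3414 without a lens. For the difference of effects they were 96, and 159 with quantile normalization, 288 with median centring, 56 with no filter, 52 with the 75th percentile filter, 21 with 1 probe set per gene or their mean, 4976 with array weights, 18 with the retina covariate and 0 to 1147 without a lens. In TKO lenses between stages they were 3498, and 5273 with no filter, 1551 with the 75th percentile filter, 1728 with 1 probe set per gene, 1265 with their mean, 7831 with all arrays in 1 fit, 11171 with array weights and 1090 to 5234 without a lens. In control lenses they were 7951, and 4436, 3610 and 3540 with 1 probe set per gene, their mean and all arrays in 1 fit. Fits of 1 value per gene test fewer features; the cause of the other shifts was not tested. No paired analysis was possible because the groups share no replicate numbers. The number of arrays and the signal above background limit what can be called, and Hspa1b was too dim to be tested.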
